A study of Homo sapiens with 30 samples.

Results

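The RNA-Seq data were examined for 10 host genes of small nucleolar RNAs (snoRNAs), namely SNHG1, SNHG3, SNHG5, SNHG6, SNHG8, SNHG12, SNHG15, SNHG16, GAS5, and ZFAS1. They were chosen by symbol, with earlier results of these data known, from a table of 26228 genes, and all 10 were found in it. The table came from SH-EP, an established mesenchymal neuroblastoma (NB) cell line without MYCN amplification, and from 4 stable lines derived from it by retroviral transfer of MYCN. The transgene, which is under an exogenous promoter, encoded WT MYCN or the phosphorylation-site mutants T58A, S62A, or T58A S62A. Each of the 5 lines was treated for 6 hours with DMSO or with 1 μM CYC065 (fadraciclib), an inhibitor of CDK9 and CDK2, and gave 3 libraries per treatment, 30 in all. Parental SH-EP cells carry no transgene, and 1 stable line stands for each MYCN form, so the effect of a MYCN form and that of its line cannot be told apart. The labels do not say whether the 3 libraries of a group came from separate cultures, and the spread between them may be technical.

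snoRNAs are short nuclear RNAs that guide chemical modification and cleavage of ribosomal RNA, and in human cells most are cut out of introns. In a noncoding host gene the introns yield the snoRNAs, whereas the spliced and polyadenylated exons yield a long noncoding RNA. Several of these transcripts start with a pyrimidine tract, as ribosomal protein mRNAs do, and are loaded on ribosomes and degraded by nonsense-mediated decay (NMD), so that a transcript's level also depends on its stability. MYC proteins are known for raising the transcription of genes for ribosome production, and CDK9 releases RNA polymerase II into elongation.

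The poly(A)-selected libraries measure the spliced host transcript and not the snoRNA. FPKM, a level per transcript length and sequencing depth, were used as deposited for the comparison of lines. For CYC065 against DMSO, they were scaled in each library to the ERCC spike-ins, synthetic RNAs added by cell number. A change is a log2 difference of values + 0.1 with its SE, and passed the test at a Benjamini-Hochberg adjusted p under 0.05 in limma over the 11575 genes whose mean reached 1 FPKM, all 10 host genes among them. Total reads were unknown, but the steps of low values gave a relative depth of 0.470 to 1 in DMSO and 0.293 to 0.554 in CYC065, where 1 is the deepest library. MYCN was listed at 0 FPKM in all SH-EP libraries and was at 5.08 to 20.1 FPKM in those of the MYCN lines. Its relative MYC was at 4.64 to 5.51 FPKM in SH-EP in DMSO and at 0.377 to 1.93 in the MYCN lines. With CYC065 MYC was at 16.7 to 18.6 and at 4.04 to 13.1 FPKM as deposited. The part of MYC in the differences below was not tested. Spike-ins took 1.99% to 15.2% of the summed FPKM, the most in S62A with CYC065. Of 5 mesenchymal markers, 5 reached 1 FPKM in every group, whereas 0 of 5 adrenergic markers did so in any group. The summed level of the mesenchymal markers in DMSO was nevertheless lower in the MYCN lines, at 1535 to 2219 FPKM against 3159 to 3279 FPKM in SH-EP. Index sequences of the SH-EP libraries were also used for libraries of the MYCN lines, so those libraries were presumably pooled apart. Which libraries shared a pool is not known here, so a difference between pools cannot be told apart from one between lines.

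The host genes lie on 8 chromosomes, with positions here on GRCh37. SNHG3 (chr1:28832492-28837404, plus strand), SNHG12 (chr1:28905050-28909644, minus strand), and GAS5 (chr1:173827697-173838020, minus strand) are on chromosome 1. SNHG8 is at chr4:119199858-119206471 (plus), SNHG5 at chr6:86360209-86388650 (minus), and SNHG15 at chr7:45022618-45026560 (minus). SNHG1 is at chr11:62619450-62623425 (minus), SNHG16 at chr17:74553809-74667067 (plus), and ZFAS1 at chr20:47894715-47916137 (plus), and SNHG6 is on chromosome 8. All 10 are annotated as long noncoding RNA genes.

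RefSeq promoters on GRCh38.p14, which run from 250 bases before to 50 bases after the start, were at hand for 8 of the 10 genes. SNHG6 and SNHG15 were not among them. The canonical E-box CACGTG, the best known site of MYC proteins, was in 0 of the 8, against 7.23% of all 34943 promoters. The E-box variant CACGCG, searched on both strands, was in 4 of the 8 (SNHG1, SNHG3, SNHG12, and SNHG16), against 11.4% of all promoters. The variant CATGCG was in 3 of the 8 (SNHG1, SNHG3, and SNHG8), against 7.02%. It overlaps its own reverse complement, so that in SNHG1 and SNHG8 neighbouring matches are the same site read on either strand. A match is a description of the letters and not a binding site.

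The 4 promoters with CACGCG are printed because SNHG1, SNHG3, and SNHG16 passed the test as higher than in SH-EP in all 4 MYCN lines on FPKM as deposited, while SNHG12 passed in none. ZFAS1, whose promoter holds neither variant, also had a higher mean in all 4 lines and passed the test in 3, with 0.18 ± 0.078 in S62A (adjusted p = 0.0566, limma). The promoters of SNHG5 and GAS5 also hold neither variant, and these genes passed as higher and as lower, each in 3 lines. SNHG8, whose promoter holds CATGCG, passed as higher in 0 lines and as lower in S62A (-0.48 ± 0.147, adjusted p = 0.00762, limma). With spike-in scaling no host gene passed as higher in any line. The printed promoters run 5′ to 3′ on the gene's strand, with both variants and their reverse complements in capitals. Their positions are chr11:62855836-62856135 (minus) for SNHG1, chr1:28505693-28505992 (plus) for SNHG3, chr17:76557514-76557813 (plus) for SNHG16, and chr1:28581824-28582123 (minus) for SNHG12.
SNHG1: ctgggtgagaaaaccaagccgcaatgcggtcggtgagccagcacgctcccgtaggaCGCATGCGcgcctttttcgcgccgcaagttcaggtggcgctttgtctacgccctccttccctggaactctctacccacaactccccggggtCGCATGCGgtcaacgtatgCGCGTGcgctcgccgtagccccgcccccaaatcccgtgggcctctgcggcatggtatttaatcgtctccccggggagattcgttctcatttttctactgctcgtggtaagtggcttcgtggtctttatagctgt
SNHG3: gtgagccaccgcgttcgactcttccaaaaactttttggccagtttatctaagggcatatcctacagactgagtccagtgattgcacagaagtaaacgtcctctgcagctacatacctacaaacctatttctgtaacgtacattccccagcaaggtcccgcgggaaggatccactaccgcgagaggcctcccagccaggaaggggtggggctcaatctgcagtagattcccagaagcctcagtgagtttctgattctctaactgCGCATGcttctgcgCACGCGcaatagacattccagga
SNHG16: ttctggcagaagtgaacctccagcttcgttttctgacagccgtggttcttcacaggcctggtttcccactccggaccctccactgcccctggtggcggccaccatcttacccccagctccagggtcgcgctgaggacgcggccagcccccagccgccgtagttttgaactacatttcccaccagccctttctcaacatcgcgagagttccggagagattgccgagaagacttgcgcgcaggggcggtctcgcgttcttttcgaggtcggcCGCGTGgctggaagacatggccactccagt
SNHG12: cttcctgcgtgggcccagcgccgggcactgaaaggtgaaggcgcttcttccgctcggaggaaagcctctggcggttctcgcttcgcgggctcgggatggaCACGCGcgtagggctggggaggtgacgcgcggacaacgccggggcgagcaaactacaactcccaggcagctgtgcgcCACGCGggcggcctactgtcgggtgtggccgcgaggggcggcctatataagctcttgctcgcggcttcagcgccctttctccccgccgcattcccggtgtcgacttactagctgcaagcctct
In SNHG3 and SNHG16 the match to CACGCG lies downstream of the start, at 28 and 21 bases, and in SNHG1 and SNHG12 it lies upstream.

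Around the start itself, the letters TATAAG, searched on the gene's strand from 40 to 20 bases before the start, were in 4 of the 8 (SNHG5, SNHG8, SNHG12, and ZFAS1), against 0.976% of all promoters. A run of a C followed by at least 3 pyrimidines, with the C at most 5 bases away from the first transcript base, was in 6 of the 8, against 34.1% of all promoters. With that base counted as 1, the run began at -5 in SNHG8, -1 in SNHG12, 5 in SNHG3, and 6 in SNHG16. Only in SNHG5 and ZFAS1 did it begin at 1. SNHG1 and GAS5 had no such run at the RefSeq start used here. Other annotated starts of these genes were not searched. The RefSeq starts may also differ from those behind the GRCh37 positions, so a run at another start is not excluded. The longest run, of 12 bases, was in SNHG12. The windows from 40 bases before to 30 bases after the start of the 4 genes with both are printed with TATAAG and the run in capitals. They are at chr6:85678704-85678773 (minus) for SNHG5, chr20:49278602-49278671 (plus) for ZFAS1, chr4:118278722-118278791 (plus) for SNHG8, and chr1:28581844-28581913 (minus) for SNHG12, on GRCh38.p14.
SNHG5: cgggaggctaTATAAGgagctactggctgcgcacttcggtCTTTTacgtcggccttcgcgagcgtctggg
ZFAS1: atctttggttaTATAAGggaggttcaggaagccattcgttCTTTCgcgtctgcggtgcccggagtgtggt
SNHG8: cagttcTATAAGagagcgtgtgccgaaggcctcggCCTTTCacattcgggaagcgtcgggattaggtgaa
SNHG12: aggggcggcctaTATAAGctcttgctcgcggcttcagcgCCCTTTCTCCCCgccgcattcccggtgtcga
SNHG5 and ZFAS1, whose runs begin at the first base of the RefSeq transcript, shared a run length of 5 bases.

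**Figure D1:**
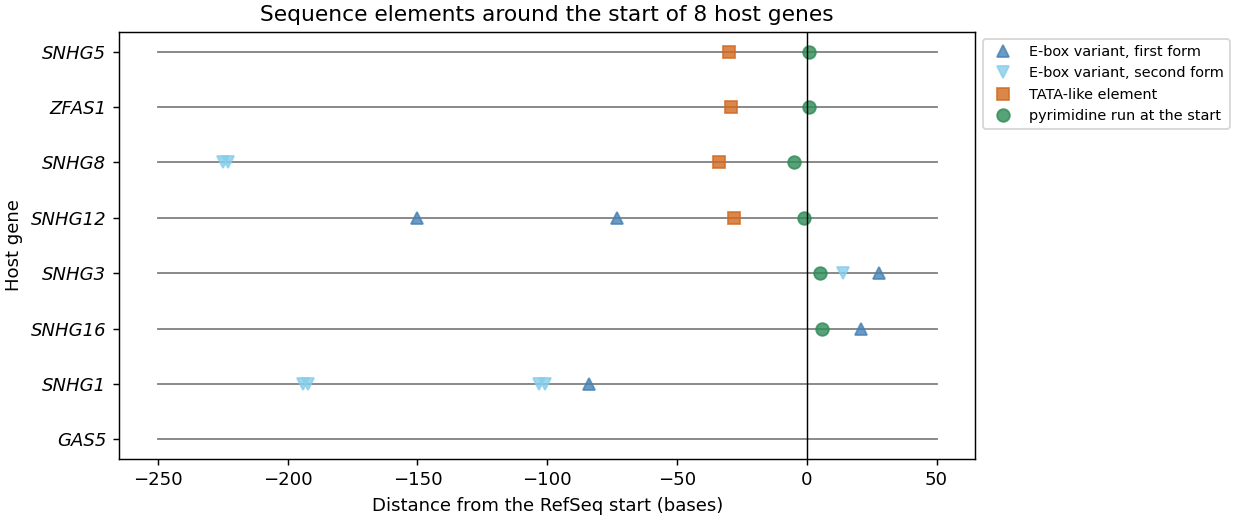
Sequence elements from 250 bases before to 50 bases after the RefSeq start of 8 host genes, by distance from the start in bases. Upward triangles mark CACGCG, downward triangles CATGCG, squares TATAAG, and circles the start of the pyrimidine run. Squares stand in 4 genes, between 34 and 28 bases before the start.

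In untreated SH-EP cells, SNHG5, which hosts SNORD50A, was the most abundant host transcript, at 369.4, 370.0, and 384.8 FPKM, and only 0.576% of all genes had a higher mean. GAS5, the growth arrest-specific transcript that carries a cluster of box C/D snoRNAs, followed at 314, 318, and 353 FPKM. SNHG8, the host of SNORA24, was next at 231 to 292 FPKM, and SNHG6, the host of SNORD87, at 175 to 199 FPKM. Below them were ZFAS1 (host of SNORD12 and its relatives, 94.2 to 108 FPKM), SNHG16 (72.1 to 76.2 FPKM), and SNHG1 (host of SNORD22, 62.6 to 63.6 FPKM). SNHG15 (host of SNORA9) at 22.0 to 28.7 FPKM and SNHG3 (host of SNORA73B) at 24.3 to 26.9 FPKM overlapped in level. SNHG12, the host of SNORA44 and SNORA61, was lowest at 17.6 to 18.1 FPKM. FPKM are per length, which allows a rough comparison between genes. The annotation behind the lengths is not given in the sources used here, so the order is approximate. The other neighbours in this order did not overlap in any library.

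SNHG5 was the highest and SNHG12 the lowest of the 10 in DMSO in all 5 lines. The summed level of the 10 in DMSO was 1457 ± 48.4 FPKM for SH-EP, 1755 ± 157 for T58A S62A, 1636 ± 30.1 for WT, 1633 ± 33.1 for T58A, and 1336 ± 117 for S62A (± SD, n = 3 per group). With CYC065 it was 2032 ± 67.3 for SH-EP, 2302 ± 138 for T58A S62A, 1818 ± 36.9 for WT, 1967 ± 63.9 for T58A, and 1915 ± 88.2 for S62A. The sums in CYC065 lay above those in DMSO in every line, with no overlap between the libraries, as deposited. The summed FPKM of all genes was also higher, however, at 668000 to 762000 in CYC065 against 416000 to 497000 in DMSO. As a percentage of it, the 10 host genes went from 0.338% to 0.360% in DMSO to 0.272% to 0.289% in CYC065 in SH-EP, and were lower in CYC065 without overlap in every line. Scaled to the spike-ins they lay below them, for example at 4639 ± 257 in DMSO and 2730 ± 339 in CYC065 in SH-EP (SD, n = 3 each).

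**Figure D2:**
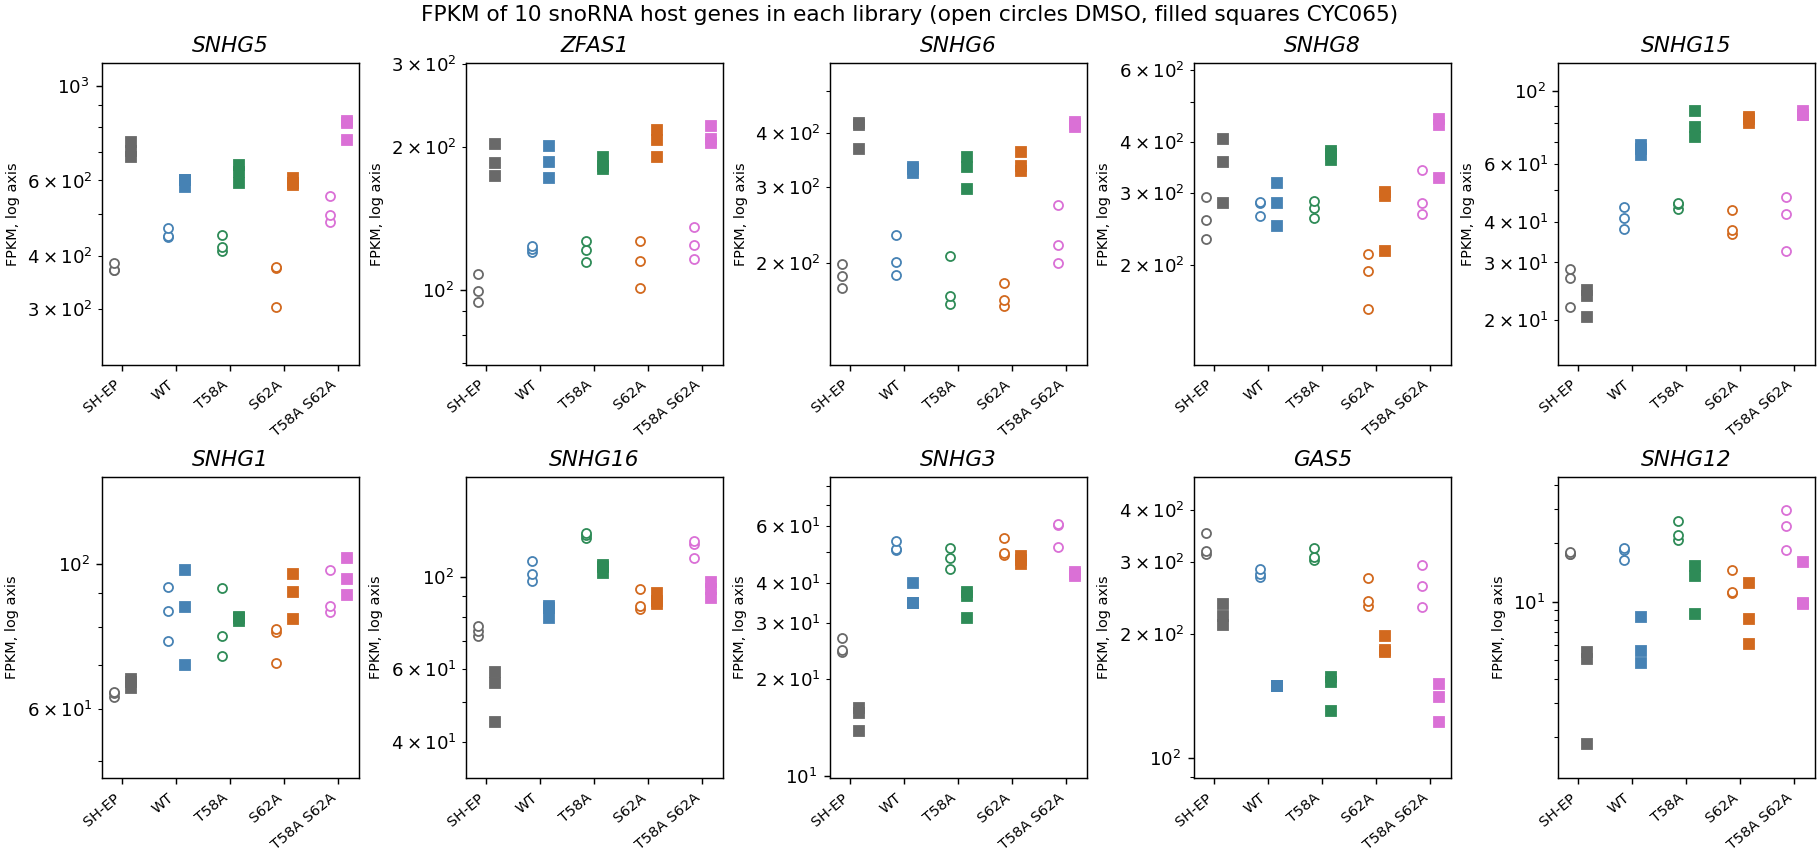
FPKM as deposited of each of the 10 host genes, on a log axis, by line, with DMSO as open circles and CYC065 as filled squares, 1 point per library. SNHG15 libraries treated with CYC065 lie at 64.1 to 87.3 FPKM in the MYCN lines and at 20.4 to 24.7 in SH-EP.

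The first comparison was of each MYCN line with SH-EP in DMSO. SNHG3, SNHG15, SNHG16, and SNHG1 were higher in all 4 MYCN lines on FPKM as deposited, and GAS5 was lower in 3, but with spike-in scaling, which placed the median of all genes at -1.17 for the mean of the lines against SH-EP, no host gene passed the test as higher in any line. Of the 10, 7 passed the test in WT (6 higher, 1 lower), where 54.2% of all genes did. In T58A, 6 passed (6 higher), against 54.2% of all genes. In S62A, 6 passed (4 higher, 2 lower), against 54.3%. In T58A S62A, 8 passed (7 higher, 1 lower), against 55.3%. In either direction, these shares lay near or somewhat above those of all genes. As higher alone, 31.6%, 30.9%, 31%, and 31.2% of all genes passed in WT, T58A, S62A, and T58A S62A as deposited. The share of the 10 that passed as higher was above these in each line. As lower alone, 22.6%, 23.3%, 23.4%, and 24.1% of all genes passed, and the share of the 10 was below these in each line. Whether the shares of the 10 differ from those of all genes was not tested. The median change of the 10 was 0.43 for T58A S62A, 0.27 for WT, 0.30 for T58A, and 0.04 for S62A, whereas that of all genes tested was 0.05 to 0.07. The 4 comparisons share the same 3 SH-EP libraries.

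SNHG3 stood at 24.3, 24.7, and 26.9 FPKM in SH-EP. It was at 50.5, 50.9, and 53.8 FPKM in WT, at 44.2, 47.8, and 51.2 in T58A, at 48.6, 49.3, and 54.9 in S62A, and at 51.6, 60.4, and 61.1 in T58A S62A. All 12 libraries of the MYCN lines lay above every SH-EP library. The change over the mean of the 4 lines was 1.03 ± 0.063 (log2 ± SE, adjusted p = 9.18e-13, limma), 2.05-fold, and ranged from 0.91 to 1.18 among lines as deposited, while with spike-in scaling it was -0.21 ± 0.149 (adjusted p = 0.177). It was above 96.1% of all genes tested on FPKM as deposited. The gene starts 37 bases from RCC1, which encodes the exchange factor of the GTPase Ran, on the same strand, and the 2 may share reads, so it is given here although it was singled out after its values were seen. RCC1 was at 41.7 to 43.99 FPKM in SH-EP and 65.8 to 81.9 FPKM in the MYCN lines in DMSO (0.75 ± 0.048, adjusted p = 2.66e-12 as deposited, -0.50 ± 0.141 with spike-in scaling). With CYC065 as deposited, RCC1 changed by -0.04 ± 0.061 in SH-EP and by -0.16 ± 0.031 in the mean of the MYCN lines. SNHG3 changed by -0.73 ± 0.080 and by -0.38 ± 0.040. Sharing of reads was not tested.

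SNHG15 was at 22.0, 26.9, and 28.7 FPKM in SH-EP in DMSO. In WT it was at 38.1, 40.9, and 44.4 FPKM, in T58A at 43.7, 45.3, and 45.7, in S62A at 36.7, 37.6, and 43.3, and in T58A S62A at 32.4, 42.1, and 47.5. No MYCN-line library reached down to the SH-EP values. As deposited, the change was 0.68 ± 0.085 over the lines (1.60-fold, adjusted p = 2.32e-07), and with spike-in scaling it was -0.56 ± 0.169 (adjusted p = 0.00298).

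SNHG16, the host of SNORD1 family members, was at 72.1, 73.9, and 76.2 FPKM in SH-EP and at 83.7 to 128 FPKM in the 12 libraries of the MYCN lines. It was highest in T58A (124, 126, and 128 FPKM) and lowest in S62A (83.7, 85.1, and 93.7 FPKM). SNHG1 was at 62.6, 63.5, and 63.6 FPKM in SH-EP and at 70.6 to 97.7 FPKM in the MYCN lines. For both, SH-EP and MYCN libraries did not overlap. The changes over the lines were 0.54 ± 0.055 for SNHG16 (adjusted p = 9.14e-09) and 0.38 ± 0.077 for SNHG1 (adjusted p = 0.000165) as deposited, and -0.71 and -0.87 with spike-in scaling.

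ZFAS1 was at 94.2 to 108 FPKM in SH-EP and 101 to 136 FPKM in the MYCN lines, and was higher in 3 of the 4 (0.26 ± 0.061 over the lines, adjusted p = 0.00077), with -0.99 after spike-in scaling. SNHG5 was also higher in 3 of the 4 (0.20 ± 0.051, adjusted p = 0.00188), and its mean was -1.05 with spike-in scaling. In S62A, SNHG5 was at 304, 374, and 377 FPKM and did not pass the test (-0.10 ± 0.065, adjusted p = 0.207). SNHG6 passed in T58A S62A only (0.30 ± 0.10, adjusted p = 0.0152), and SNHG8 in S62A only, where it was at 156, 193, and 212 FPKM against 231, 258, and 292 in SH-EP (-0.48 ± 0.147, adjusted p = 0.00762). Whether the lines differ in these changes is addressed by the comparison of mutants with WT. SNHG12 passed in no line (adjusted p 0.157 to 0.994 in limma).

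GAS5 went the other way. It was at 314, 318, and 353 FPKM in SH-EP and at 276, 280, and 289 FPKM in WT. In S62A it was at 234, 241, and 274 FPKM, and in T58A S62A at 234, 262, and 294 FPKM. T58A, at 303, 308, and 325 FPKM, overlapped SH-EP. The mean change was -0.25 ± 0.066 (adjusted p = 0.00195) as deposited and -1.50 ± 0.146 with spike-in scaling.

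With spike-in scaling, 10 of the 10 were lower in S62A than in SH-EP, 9 in WT, 6 in T58A, and 4 in T58A S62A, and 0 were higher. Of all genes, 95.4%, 89.5%, 79.5%, and 72.0% passed the test in these comparisons in either direction.

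**Figure D3:**
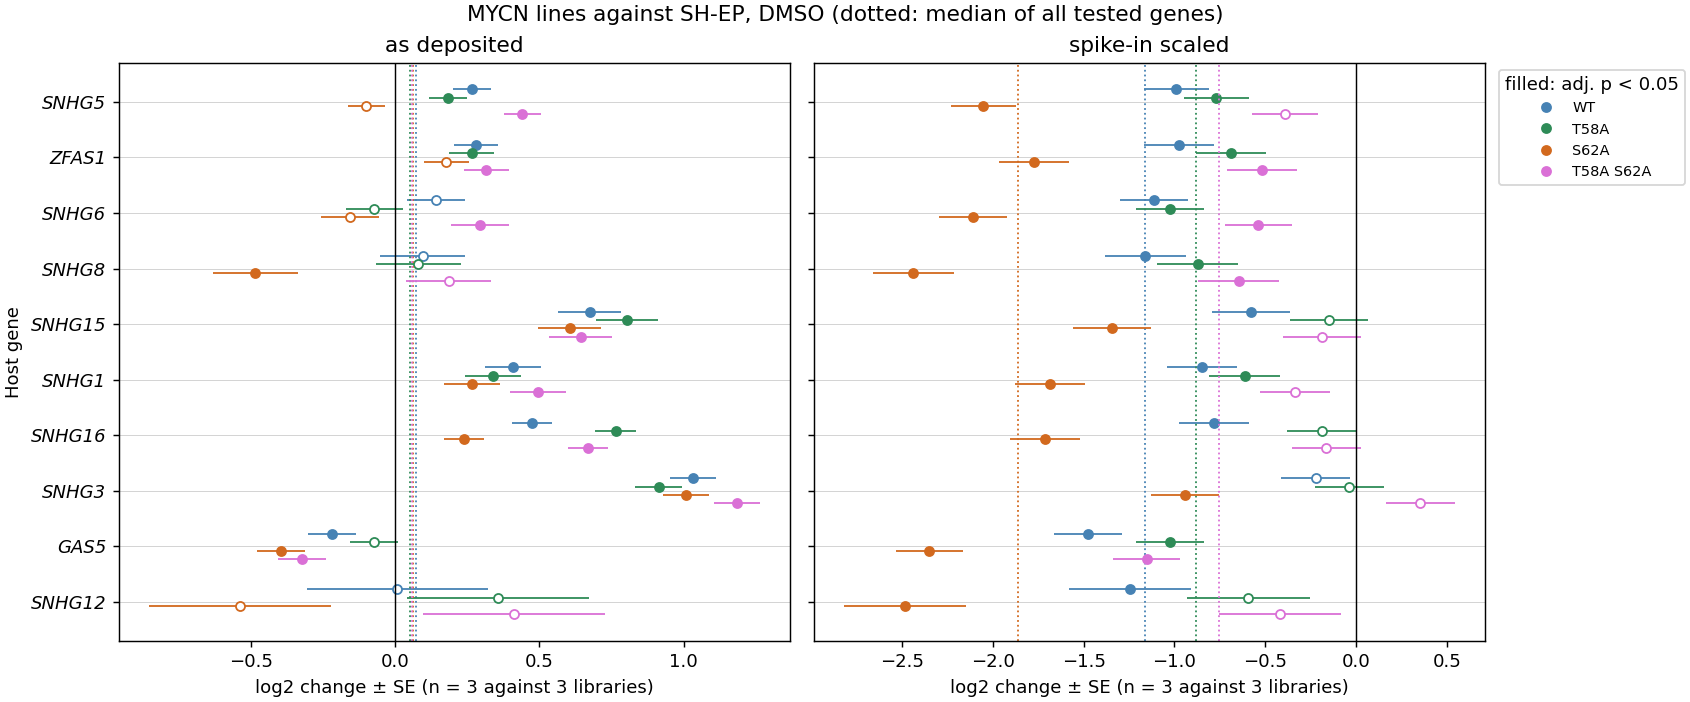
log2 change of each host gene in the 4 MYCN lines against SH-EP in DMSO, with SE (n = 3 against 3 libraries), as deposited on the left and scaled to the spike-ins on the right. Filled points passed the test, and dotted lines mark the median of all tested genes. SNHG3 lies at 0.91 to 1.18 on the left and at -0.94 to 0.35 on the right.

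Among the MYCN lines, the mutants were compared with WT in DMSO on FPKM as deposited. T58A and T58A S62A each differed from WT in 1 host gene, SNHG16, which was higher by 0.29 ± 0.070 (adjusted p = 0.00357) and by 0.19 ± 0.070 (adjusted p = 0.0445). Of all genes, 23.6% and 23.7% passed in these comparisons. In S62A, 4 of the 10 were lower than in WT (SNHG5, SNHG6, SNHG8, and SNHG16) and 0 higher. Of all genes, 14% passed as lower and 10.1% as higher, 24.1% in either direction. SNHG8 differed most, by -0.58 ± 0.147 (adjusted p = 0.00527), followed by SNHG5 at -0.37 ± 0.065 (adjusted p = 0.000197), SNHG6 at -0.30 ± 0.10 (adjusted p = 0.0309), and SNHG16 at -0.24 ± 0.070 (adjusted p = 0.0147). The S62A line also had the least MYCN, at 5.08 to 6.59 FPKM against 7.27 to 15.7 FPKM in the other MYCN lines in DMSO, and its part in these differences was not tested. With spike-in scaling, 0 of the 10 differed from WT in T58A, 10 were lower in S62A, and 4 were higher in T58A S62A, where 8.59%, 75.0%, and 24.2% of all genes passed. The calls of SNHG6 and SNHG16 in S62A were lost without WT DMSO library 1 or S62A DMSO library 1 or 3 (adjusted p 0.0783 to 0.197 for SNHG6 and 0.0575 to 0.0914 for SNHG16), and those of SNHG5, SNHG6, and SNHG16 with only the compared groups in the fit (adjusted p = 0.0657, 0.0904, and 0.0675). The call of SNHG16 in T58A S62A was lost without WT DMSO library 2 or 3 or T58A S62A DMSO library 1 or 2, which left 0.

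CYC065 was then compared with DMSO within each line. Scaled to the spike-ins, every host gene that passed the test in a line fell. In the mean of the MYCN lines all 10 passed, with the largest falls in SNHG12 and GAS5. There SNHG5, SNHG6, SNHG8, ZFAS1, and SNHG15 fell by less than the median gene. In SH-EP the largest falls were those of SNHG12 and SNHG3. On FPKM as deposited, which are relative to the reads of each library, SNHG5, SNHG6, and ZFAS1 were instead higher with CYC065 in all 5 lines, SNHG15 in the 4 MYCN lines, and SNHG8 in all lines but WT (0.02 ± 0.147, adjusted p = 0.914). In bulk RNA, fewer cells that express a gene and less of its RNA in each of them cannot be told apart. In SH-EP, 7 of the 10 fell and 0 rose with spike-in scaling, against 76.6% of all genes that passed. In WT, 10 fell, against 94.5% of all genes that passed in either direction. In T58A, 8 fell, against 85.5%, in S62A 9 fell, against 91.2%, and in T58A S62A 7 fell, against 78.1%. As lower alone, 75.7%, 93.7%, 84.2%, 90.2%, and 76.3% of all genes passed in these 5 comparisons, in the same order. The shares of the host genes lay near these. The median change of the 10 was -1.31 in SH-EP and -1.14 in the mean of the MYCN lines, beside -1.06 and -1.23 for all genes. As deposited, 4 rose and 4 fell in SH-EP (76.3% of all genes passed), 4 rose and 4 fell in WT (71.2%), 5 rose and 4 fell in T58A (71.4%), 6 rose and 1 fell in S62A (73.4%), and 5 rose and 4 fell in T58A S62A (72.8%).

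SNHG12 had the lowest levels after CYC065. Its FPKM went from 17.6, 17.6, and 18.1 to 1.84, 5.04, and 5.47 in SH-EP, and from 16.5, 18.4, and 18.8 to 4.82, 5.58, and 8.29 in WT. In T58A it went from 20.8, 21.9, and 25.9 to 8.60, 13.5, and 15.2, and in T58A S62A from 18.4, 24.5, and 29.4 to 9.75, 9.77, and 15.9. In S62A, DMSO libraries at 11.1, 11.2, and 14.6 FPKM overlapped CYC065 libraries at 6.04, 8.12, and 12.5. In the other 4 lines the treatments did not overlap. With spike-in scaling it fell by 3.48 ± 0.337 in SH-EP (adjusted p = 5.5e-10) and by 2.34 ± 0.168 in the mean of the MYCN lines (adjusted p = 3.09e-13). The direction was the same as deposited, at -2.23 ± 0.315 and -1.0 ± 0.157.

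GAS5 fell from 314, 318, and 353 to 211, 222, and 237 FPKM in SH-EP. It fell from 276, 280, and 289 to 149.8, 149.9, and 150.2 FPKM in WT, and from 303, 308, and 325 to 130.3, 153, and 157 FPKM in T58A. In S62A it went from 234, 241, and 274 to 181, 183, and 199 FPKM, and in T58A S62A from 234, 262, and 294 to 123, 141, and 152 FPKM. The treatments did not overlap in any line. The change was -1.81 ± 0.185 in SH-EP (adjusted p = 1.64e-09) and -2.20 ± 0.093 in the mean of the MYCN lines (adjusted p = 3.07e-18) on the spike-in scale. As deposited it was -0.56 ± 0.083 and -0.83 ± 0.042.

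SNHG3 and SNHG16 fell in every line with spike-in scaling. SNHG3 changed by -1.98 ± 0.189 in SH-EP and by -1.74 ± 0.094 in the mean of the MYCN lines (adjusted p = 7.03e-16). SNHG16 changed by -1.74 ± 0.192 and by -1.59 ± 0.096 (adjusted p = 7.5e-15). As deposited they fell in 4 of the 5 lines and did not pass the test in S62A, where SNHG3 was at 48.6 to 54.9 FPKM in DMSO and 45.6 to 48.4 in CYC065. SNHG1 also fell in every line with spike-in scaling (1.27 ± 0.097 in the mean of the MYCN lines, adjusted p = 1.06e-12). As deposited it was at 62.6 to 63.6 and 64.5 to 66.7 FPKM in SH-EP, without overlap, and passed the test in S62A alone.

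SNHG5, SNHG6, and ZFAS1 had higher FPKM after CYC065 as deposited. SNHG5 went from 369.4, 370.0, and 384.8 to 682, 705, and 740.2 FPKM in SH-EP and from 443, 446, and 464 to 581, 600.1, and 601 FPKM in WT. SNHG6 went from 175, 187, and 199 to 368, 417, and 421 FPKM in SH-EP, and ZFAS1 from 94.2, 99.2, and 108 to 174, 185, and 203 FPKM. As deposited, all 3 rose in all 5 lines, and treatments overlapped in none of them. As a percentage of the summed FPKM, SNHG5 was at 0.0892% in DMSO and 0.0974% in CYC065 in SH-EP, but at 0.0961% and 0.0832% in WT (means, n = 3 each), and ZFAS1 was at 0.026% in both treatments in WT.

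On the spike-in scale the same libraries gave falls or no call. SNHG5 was at 1129, 1189, and 1263 scaled FPKM in DMSO and 824, 980, and 1053 in CYC065 in SH-EP (-0.33 ± 0.179, adjusted p = 0.0933). SNHG6 (-0.15 ± 0.187, adjusted p = 0.468) and ZFAS1 (-0.35 ± 0.193, adjusted p = 0.0987) did not pass in SH-EP either. In the mean of the MYCN lines they fell by 0.77 ± 0.090 (SNHG5), 0.50 ± 0.093 (SNHG6), and 0.66 ± 0.097 (ZFAS1), beside the fall of 1.23 of the median gene. SNHG8 fell by 0.84 ± 0.224 in SH-EP (adjusted p = 0.00151) and by 1.00 ± 0.112 in the MYCN lines (adjusted p = 2.69e-09), but as deposited it was higher in CYC065 by 0.41 and 0.36.

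**Figure D4:**
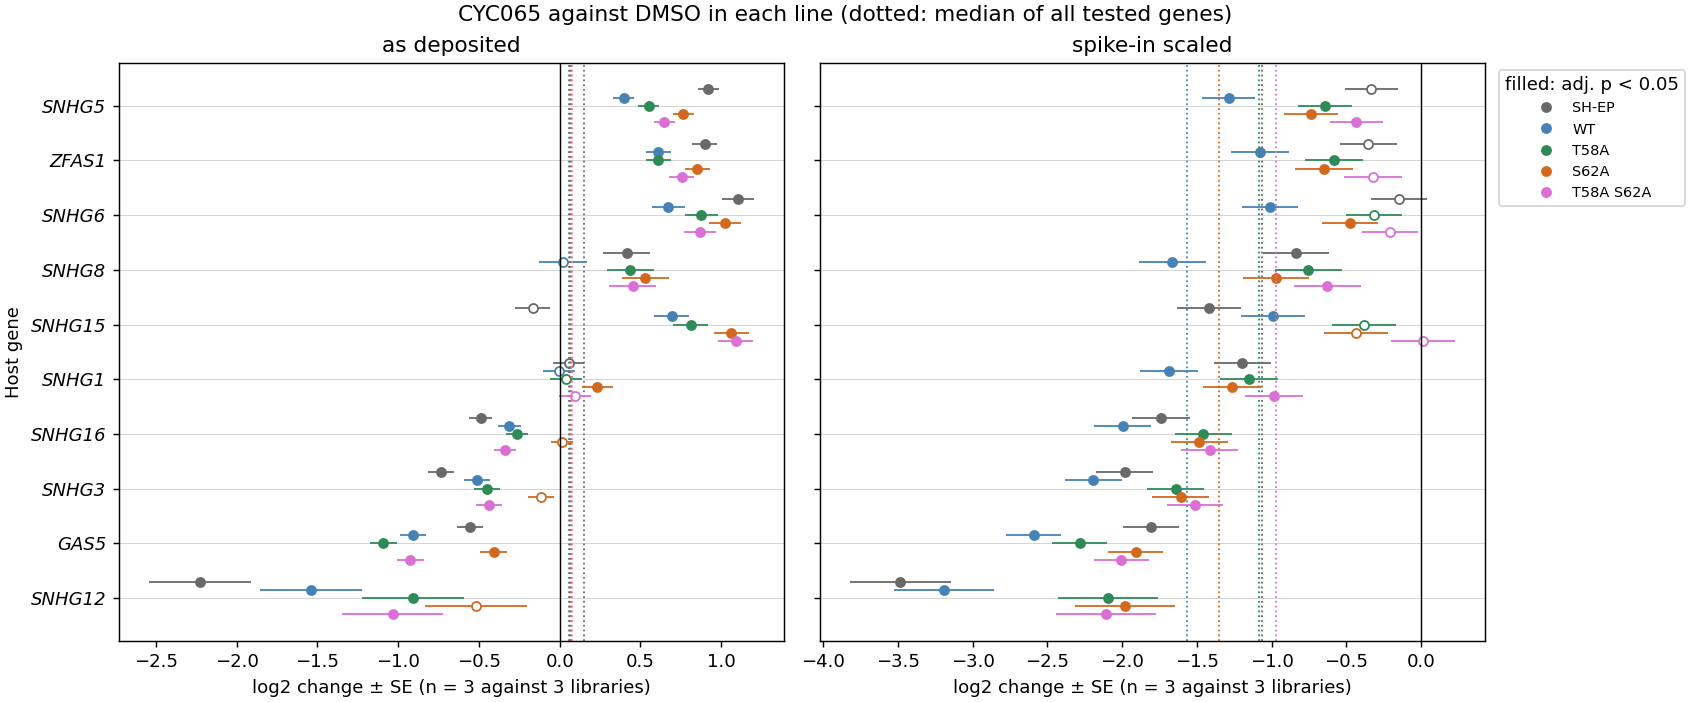
log2 change with CYC065 of each host gene in the 5 lines, with SE (n = 3 against 3 libraries), as deposited on the left and scaled to the spike-ins on the right. Filled points passed the test, and dotted lines mark the median of all tested genes. GAS5 and SNHG12 lie left of 0 in both panels, and SNHG5, SNHG6, and ZFAS1 lie right of 0 on the left panel.

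Differences among host genes within a library do not depend on the scaling. Each gene's log2(FPKM + 0.1) was therefore also set against the mean of the 10 in the same library, as a description without a test. SNHG5, SNHG6, SNHG8, and ZFAS1 moved up relative to the mean of the 10 with CYC065 in all 5 lines, by 0.42 to 1.00, 0.68 to 1.18, 0.11 to 0.49, and 0.51 to 0.98. For SNHG8 the treatments were without overlap in only 3 lines, and for SNHG5, SNHG6, and ZFAS1 in all 5. SNHG3, SNHG12, SNHG16, and GAS5 moved down in all 5, by -0.66 to -0.42, -2.15 to -0.86, -0.45 to -0.22, and -1.15 to -0.48. SNHG1 moved by -0.11 to 0.13. The ratio of GAS5 to SNHG5 in SH-EP was 0.827, 0.849, and 0.953 in DMSO and 0.285, 0.325, and 0.336 in CYC065. In T58A S62A it went from 0.469, 0.535, and 0.546 to 0.165, 0.172, and 0.183, and the treatments overlapped in none of the 5 lines. These 2 genes, were chosen for this ratio after their values were seen.

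**Figure D5:**
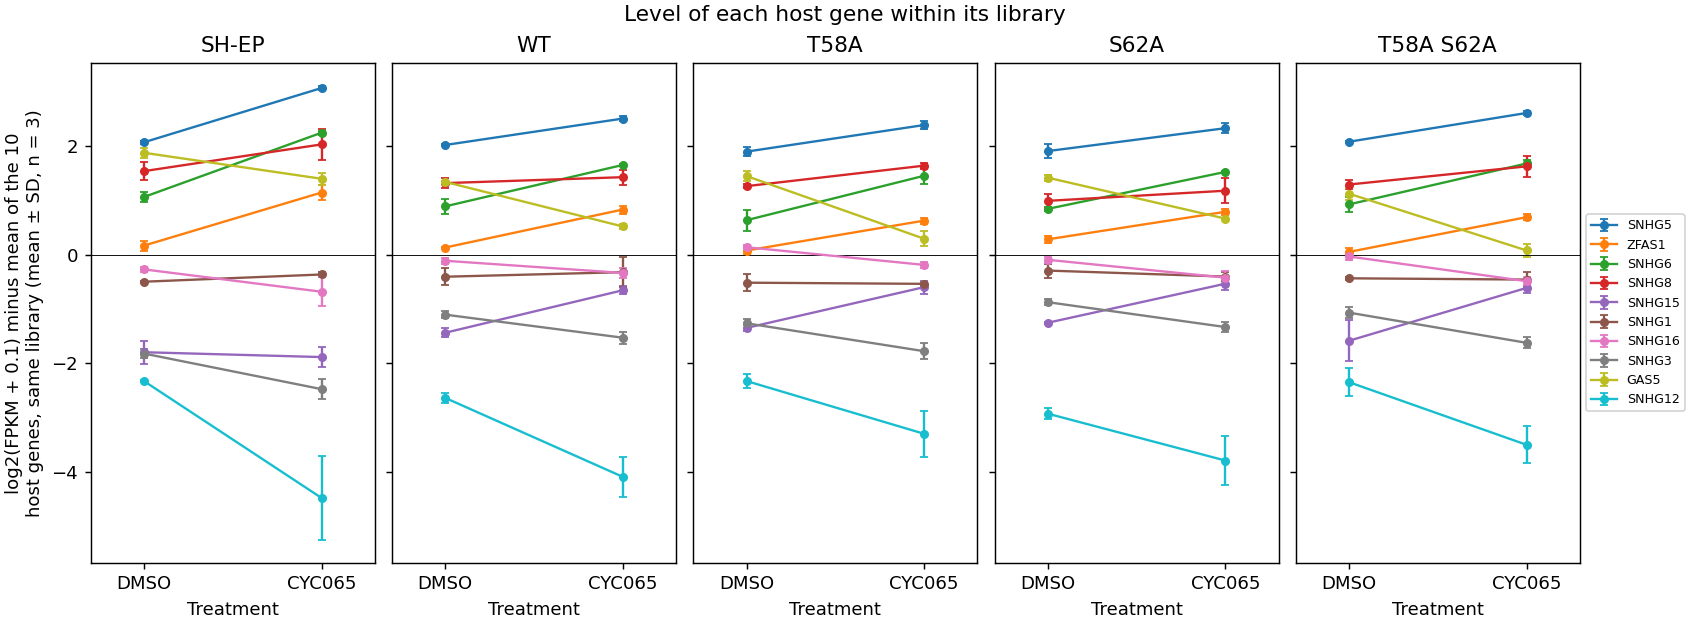
log2(FPKM + 0.1) of each host gene minus the mean of the 10 in the same library, in DMSO and CYC065, by line (mean ± SD, n = 3 libraries). SNHG15 moves by -0.09 in SH-EP and by 0.72 to 0.97 in the MYCN lines.

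The change of SNHG15 with CYC065 was not alike in SH-EP and the MYCN lines. In SH-EP it was at 22.0, 26.9, and 28.7 FPKM in DMSO and at 20.4, 23.7, and 24.7 FPKM in CYC065, which overlap. In WT it went from 38.1, 40.9, and 44.4 to 64.1, 66.8, and 68.6 FPKM, in T58A from 43.7, 45.3, and 45.7 to 72.5, 77.7, and 87.2, in S62A from 36.7, 37.6, and 43.3 to 79.9, 82.1, and 83.4, and in T58A S62A from 32.4, 42.1, and 47.5 to 84.8, 84.9, and 87.3. CYC065 and DMSO libraries did not overlap in any MYCN line. As a percentage of the summed FPKM, the mean of SNHG15 went from 0.00615% in DMSO to 0.00315% in CYC065 in SH-EP. It went from 0.00876% to 0.00932% in WT, where the libraries overlapped, and from 0.00993% to 0.0115% in T58A. In S62A it went from 0.00904% to 0.0112%, and in T58A S62A from 0.00897% to 0.0119%. As deposited, the response in the MYCN lines exceeded that in SH-EP by 0.86 to 1.26, and the interaction passed the test in all 4 lines (adjusted p 1.63e-06 to 0.000232, limma).

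On the spike-in scale SNHG15 fell by 1.42 ± 0.214 in SH-EP (adjusted p = 1.36e-06) and by 0.45 ± 0.107 in the mean of the MYCN lines (adjusted p = 0.000312), a fall smaller than that of 92.9% of all genes. In T58A S62A it was at 58.4, 74.8, and 84.6 scaled FPKM in DMSO and 59.1, 75.7, and 84.9 in CYC065 (0.01 ± 0.214, adjusted p = 0.964). The interaction was 0.97 ± 0.240 over the 4 lines (adjusted p = 0.0125). By line it passed in T58A S62A (1.43, adjusted p = 0.00332) and did not pass in the other 3, although its direction was the same in all 4. With spike-ins of at least 50 FPKM, it passed in neither (0.83 over the lines with an adjusted p of 0.231, and 1.18 for T58A S62A with an adjusted p of 0.248). The interaction over the lines was also lost without SH-EP DMSO library 1 (0.88, adjusted p = 0.066) or SH-EP CYC065 library 3 (0.79, adjusted p = 0.0691).

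With spike-in scaling, the responses of SNHG5 (-0.96 ± 0.253), SNHG6 (-0.87 ± 0.264), and GAS5 (-0.79 ± 0.262) were lower in WT than in SH-EP, so that 3 of the 10 passed, against 18.1% of all genes. The median of all genes was itself -0.52 in this interaction. The 3 calls were lost with spike-ins of at least 50 FPKM, and the count was 0 without SH-EP DMSO library 1 or 2, SH-EP CYC065 library 1 or 2, WT DMSO library 1, or WT CYC065 library 2 or 3, 1 without SH-EP DMSO library 3, and 5 without WT DMSO library 2 or WT CYC065 library 1. In T58A and S62A, 0 passed, against 2.59% and 4.95% of all genes, and with limma at an unadjusted p under 0.05 there were 2 in each, SNHG12 and SNHG15. In T58A S62A, 1 passed, SNHG15, against 5.41%. As deposited, the interaction passed for 4 of the 10 in WT (28.6% of all genes), 3 in T58A S62A (25.4%), 4 in T58A (23.9%), and 4 in S62A (24.6%). SNHG15 was among them in each. SNHG12 fell by less in T58A and S62A than in SH-EP as deposited, with a mean interaction over the 4 lines of 1.23 ± 0.352 (adjusted p = 0.00938), but on the spike-in scale that mean did not pass (1.14 ± 0.376, adjusted p = 0.0727).

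Other genes of snoRNA biology were set beside the 10. Of 14 further noncoding hosts that were tested, 11 were higher and 2 lower in the mean of the MYCN lines than in SH-EP as deposited, with a median of 0.66, where 60.9% of all genes passed with a median of 0.06. The 3 with the largest changes past the test in all 4 lines were SNHG4 (1.25 ± 0.131), DANCR (1.03 ± 0.089), and SNHG9 (0.98 ± 0.193). Of 23 protein-coding hosts, 17 were higher and 1 lower (median 0.23), led by NCL, the nucleolar protein nucleolin (1.00 ± 0.035), DKC1, the pseudouridine synthase dyskerin (0.95 ± 0.033), and NOP56, a box C/D core protein (0.75 ± 0.036). Of 18 genes for snoRNP proteins and their assembly factors, all 18 were higher (median 0.50), led by RRP9 (1.47 ± 0.063), FBL, the methyltransferase fibrillarin (0.96 ± 0.039), and again DKC1, which is in both lists. With spike-in scaling 0 of these genes were higher, and 9 of the 14, 22 of the 23, and 16 of the 18 were lower, where 92.3% of all genes passed.

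Of 18 genes of NMD and the exon junction complex, 10 were higher and 5 lower in the MYCN lines as deposited (median 0.21), with EIF4A3 (0.71 ± 0.044), MAGOH (0.61 ± 0.072), and UPF3B (0.55 ± 0.085) changing most, and with spike-in scaling 18 were lower. Of 12 long noncoding RNAs without a snoRNA, 4 were higher and 4 lower (median -0.09), led by MIR17HG, the host of the miR-17 cluster (2.0 ± 0.221), and CRNDE (0.77 ± 0.087), but with spike-in scaling 1 was higher and 11 were lower. Of all genes, 34.6% passed as higher and 26.3% as lower as deposited, and 1.1% and 91.2% with spike-in scaling.

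With CYC065 in the mean of the MYCN lines on the spike-in scale, where 95.8% of all genes passed with a median of -1.23, 12 of the 14 further noncoding hosts, 23 of the 23 protein-coding hosts, 18 of the 18 snoRNP genes, and 18 of the 18 NMD genes fell. The median was -1.05 for noncoding hosts, -0.66 for protein-coding hosts, -1.01 for snoRNP genes, and -1.69 for NMD genes. SNHG7 fell by 2.39 ± 0.094, HSPA8, a protein-coding host for a chaperone, by 1.72 ± 0.089, and SHQ1, a box H/ACA assembly factor, by 1.93 ± 0.093. The largest falls of the NMD list were those of SMG9 (4.61 ± 0.135), SMG6, the NMD endonuclease (2.49 ± 0.104), and CASC3 (2.44 ± 0.087). Of the 12 long noncoding RNAs without a snoRNA, 7 fell, TUG1 by 2.34 ± 0.099, and 4 rose, LINC-PINT by 1.58 ± 0.238. As deposited, where 85.0% of all genes passed, 7 of the 14 rose and 1 fell, 20 of the 23 rose and 2 fell, 12 of the 18 snoRNP genes rose and 3 fell, 7 of the 18 NMD genes rose and 10 fell, and 9 of the 12 long noncoding RNAs without a snoRNA rose and 1 fell.

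Protein-coding genes that start within 1 kb of a host gene on the opposite strand were SLC3A2, ZBTB37, and ZNFX1. SLC3A2, an amino acid transporter subunit that starts 51 bases from SNHG1, was at 117 to 125 FPKM in SH-EP and 149 to 210 FPKM in the MYCN lines in DMSO (0.57 ± 0.051, adjusted p = 8.73e-10 as deposited, -0.68 with spike-in scaling). ZNFX1, 248 bases from ZFAS1, was lower in the MYCN lines (-0.69 ± 0.110, adjusted p = 6.71e-06), where ZFAS1 was higher, as deposited. With CYC065 ZNFX1 went from 10.7, 11.1, and 11.5 to 2.22, 2.87, and 3.03 FPKM in SH-EP (-2.01 ± 0.139 as deposited, -3.26 ± 0.244 on the spike-in scale). ZBTB37, which starts 800 bases from GAS5, was at 2.12 to 2.82 FPKM in SH-EP in DMSO and 0.843 to 1.19 FPKM in CYC065. The study's methods name a directional kit and a strand setting for FPKM, whereas the labels name a kit without that word, so sharing of reads with these neighbours was not tested.

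Over the 30 libraries as deposited, levels of SNHG5 and SNHG6 had a Pearson r of 0.957, SNHG6 and ZFAS1 of 0.930, and SNHG3 and SNHG16 of 0.846, whereas GAS5 and ZFAS1 had -0.833. The libraries share line, treatment, and depth, so these values describe the table and are no test. Among 11565 other genes, those with the profile most like the mean standardized level of the 10 were LAS1L, a gene of ribosomal RNA processing (r = 0.884), UNG, the uracil-DNA glycosylase (0.879), MRPS7, a mitochondrial ribosomal protein (0.878), TIMM13 (0.865), and NR4A2 (0.862).

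Rows for the snoRNAs themselves were of little use. Of 35 snoRNAs within the 10 host genes that were looked up, 34 had a row and 17 of these were listed at 0 in every library. SNORD76, within GAS5, was at 810, 1061, and 2300 FPKM in SH-EP in DMSO and at 0, 160, and 749 FPKM in CYC065. Mature snoRNAs have no poly(A) tail, and these values were not read as snoRNA levels.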

How the data were processed

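RNA-Seq was performed in SH-EP and in 4 SH-EP MYCN lines, with DMSO or CYC065 (3 libraries per group, 30 in all). Per the study's methods, total RNA received ERCC spike-ins in proportion to the number of cells and was poly(A)-selected, reads were aligned to hg19/GRCh37 with HISAT2, and the authors computed the deposited FPKM with Cufflinks. The annotation used for that step is not given in the sources used here. FPKM are not counts, and total reads are unknown, so no count test was run. Relative depth was taken from the steps of low values. No pair of libraries was identical (0 identical pairs).

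Genes whose mean reached 1 FPKM (11575 of 26228) were tested on log2(FPKM + 0.1) in 1 fit over all 10 groups with limma 3.58.1 in R 4.3.3 (trended empirical Bayes), with Benjamini-Hochberg adjustment over all genes tested and a threshold of 0.05. A fold change on this scale understates the change of low genes. Comparisons of lines used FPKM as deposited. For CYC065 and for differences between responses, each library was scaled by the median of the 55 spike-ins whose mean reached 1 FPKM. The fit was tried on simulated data with independent noise for each gene and library. These held no error shared by a whole library, so they do not bear on the spike-in scaling. The members and gene lists were chosen with earlier results of these data known. Named genes were the 10 host genes, up to 3 genes per list that moved most on average and passed the threshold with 1 sign in each of the 4 MYCN lines, protein-coding genes that start within 1 kb on the opposite strand, and the 5 genes most correlated with the mean of the hosts. Alternatives changed the pseudocount, the filter, the scaling, the spike-ins, the groups in the fit, the minimum fold, and left out each library in turn. Positions came from GENCODE on GRCh37, and promoters from RefSeq on GRCh38.p14 (34943 promoters). Library numbers are those of the table's columns, counted from 1, which carry other numbers than the sample titles.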

Additional observations from a re-analysis of the deposited data

Results flagged for a closer look

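The following 4 differences between the CYC065 response of a MYCN line and that of SH-EP passed the interaction test on spike-in scaled FPKM (limma, adjusted over all genes tested). In WT, the response of SNHG5 was lower, at -0.96 on the log2 scale (adjusted p = 0.0273), that of SNHG6 at -0.87 (adjusted p = 0.036), and that of GAS5 at -0.79 (adjusted p = 0.0424), beside a median of all genes of -0.52. With spike-ins of at least 50 FPKM the 3 did not pass, at -1.06, -0.97, and -0.89. In T58A S62A, the response of SNHG15 was higher by 1.43 (adjusted p = 0.00332), beside a median of all genes of 0.08, and with spike-ins of at least 50 FPKM it was 1.18 (adjusted p = 0.248). The part of spike-in recovery in these differences was not tested.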

How the results depend on the processing

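The scaling decided most directions. With the other scaling, the mean of the MYCN lines against SH-EP was -0.87 for SNHG1, -0.21 for SNHG3, -1.05 for SNHG5, -1.20 for SNHG6, -1.18 for SNHG12, -0.56 for SNHG15, -0.71 for SNHG16, and -0.99 for ZFAS1. With CYC065 in the mean of the MYCN lines it gave 0.091 for SNHG1, 0.59 for SNHG5, 0.86 for SNHG6, 0.36 for SNHG8, 0.91 for SNHG15, and 0.71 for ZFAS1, and in SH-EP 0.055, 0.92, 1.10, 0.41, and 0.90 for SNHG1, SNHG5, SNHG6, SNHG8, and ZFAS1. With libraries centred on their median, the CYC065 values were 0.26, 0.76, 1.03, 0.53, 1.09, and 0.88 for SNHG1, SNHG5, SNHG6, SNHG8, SNHG15, and ZFAS1 in the MYCN lines, and 0.19, 1.06, 1.24, 0.55, and 1.04 for SNHG1, SNHG5, SNHG6, SNHG8, and ZFAS1 in SH-EP.

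The number of host genes past the threshold moved as follows. With the other scaling it was 10 for S62A and 4 for T58A S62A against SH-EP, 0, 10, and 4 for T58A, S62A, and T58A S62A against WT, and 4, 4, and 3 for their response differences from SH-EP. With median centring, these 3 response differences gave 5, 4, and 4, and T58A S62A against WT gave 0. With spike-ins of at least 50 FPKM, CYC065 in T58A gave 5, and the response differences of WT and T58A S62A gave 0 and 0. Without a filter, the WT response difference gave 1 and T58A S62A against WT gave 0, and with a mean of at least 5 FPKM they gave 5 and 2. A pseudocount of 1 gave 2 for the S62A response difference. With only the groups compared in the fit, the S62A response difference gave 1, S62A against WT 2, and T58A S62A against WT 0. A minimum change of 1.5-fold left 2, 3, 2, and 3 for WT, T58A, S62A, and T58A S62A against SH-EP, and 0, 0, and 0 for the mutants against WT. The cause was not tested.

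Leaving out each library in turn gave 0 to 5 for the WT response difference (0 without SH-EP DMSO 1 or 2, SH-EP CYC065 1 or 2, WT DMSO 1, or WT CYC065 2 or 3, 1 without SH-EP DMSO 3, and 5 without WT DMSO 2 or WT CYC065 1). It gave 0 to 1 for that of T58A (1 without T58A DMSO 1 or 3), 0 to 1 for that of S62A (1 without S62A DMSO 2 or SH-EP CYC065 1), and 1 to 2 for that of T58A S62A (2 without SH-EP CYC065 1). It gave 1 to 2 for T58A against WT (2 without T58A DMSO 2), 2 to 4 for S62A against WT (2 without WT DMSO 1 or S62A DMSO 1 or 3), and 0 to 2 for T58A S62A against WT (2 without T58A S62A DMSO 3). All other counts stayed within 1.5-fold. Of 1268 recomputed values of 50 gene results, 1154 kept their direction and side of the threshold, 69 lost the threshold, 15 gained it, and 30 reversed, with their values given above; values past it in neither fit were not counted as reversed. No paired analysis was possible because the table's columns carry numbers other than those of the sample titles, so the replicate of a column is not known. Depth was lower in CYC065 libraries, which limits low genes such as SNHG12.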
